A study of Mus musculus with 4 samples.

Results

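miR-22 is a microRNA (miRNA) whose hairpin precursor yields one mature strand from each arm, mmu-miR-22-3p and mmu-miR-22-5p. These were the 2 members analysed here, taken as the rows of the deposited table whose name, without any suffix, is one of these names, with each sequence counted once. They were 2 of 697 sequences with a mouse miRNA name, in a table of 1640 entries and 1482 sequences. The small RNA of exosomes, the small vesicles that tissue releases, was sequenced in 4 libraries. The groups were HFD vWAT-Exos and LFD vWAT-Exos, from visceral white adipose tissue (vWAT), and HFD BAT-Exos and LFD BAT-Exos, from brown adipose tissue (BAT). All came from wild-type C57BL/6 mice that were fed a high-fat diet (HFD) or a low-fat diet (LFD) for 4 months from 6 weeks of age. Minced tissue was cultured and the exosomes were collected from its medium by ultracentrifugation. Whether a library pools several mice, and how many, is not stated in the labels or the study's methods.

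Both strands of a miRNA hairpin start as a duplex. One strand, the guide, is loaded into an Argonaute protein and represses messenger RNAs that pair with its seed, the bases near its 5′ end, while the passenger strand is mostly degraded. miR-22-3p is the usual guide and is abundant in heart, skeletal muscle and many other tissues. It is known to repress the deacetylases Hdac4 and Sirt1 and also Tet2, an enzyme that removes DNA methylation. Mice that lack miR-22 have been described as gaining less fat on a fat-rich diet, and miR-22 has also been studied in the differentiation of fat cells and in the development of blood cells.

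The mature sequences are printed because the seed defines what each strand can pair with, and because their read numbers are compared throughout. They come from RefSeq, where both members matched, and the capitals mark the seed (bases 2 to 8):
mmu-miR-22-3p: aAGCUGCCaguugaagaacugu
mmu-miR-22-5p: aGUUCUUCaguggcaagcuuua
The deposited row of miR-22-3p held this sequence in full, at 22 bases. The row of miR-22-5p was 1 base shorter at its 3′ end, at 21 bases, with the seed unchanged. The seeds of the strands differ. None of the other mouse miRNA sequences in the table had either seed, and among the mature miRNAs of the RefSeq table each seed occurred once. Each listed sequence was found in 1 hairpin of that table.

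The hairpin is printed to show how the strands lie to each other, with both mature arms in capitals, miR-22-5p first:
Mir22: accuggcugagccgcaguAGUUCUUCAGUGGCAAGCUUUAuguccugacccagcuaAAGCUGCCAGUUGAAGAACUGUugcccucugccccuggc
It is 95 bases long and lies on the plus strand at chr11:75463716-75463810 of GRCm38.p6, with miR-22-5p at chr11:75463734-75463755 and miR-22-3p at chr11:75463772-75463793. The Mir22 gene lies within exon 2 of both GENCODE transcripts of Mir22hg, its noncoding host gene, which RefSeq places at chr11:75461539-75466690. The arms are 16 bases apart. In the fold that RNAfold predicted, with a free energy of -41.9 kcal/mol, 19 of the 22 bases of miR-22-5p paired with miR-22-3p, and all 7 bases of either seed were paired.

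Each value is a norm value, the normalized count that the authors deposited. The norm values of the mouse miRNAs stood for 1182351 reads in HFD vWAT-Exos, 1874642 in LFD vWAT-Exos, 7978998 in HFD BAT-Exos and 6593250 in LFD BAT-Exos, as approximated from the value of 1 read. The brown fat label was compared with 10 miRNAs known from brown adipocytes. Of these, 9 on HFD and 8 on LFD were at least 2-fold lower in vWAT-Exos than in BAT-Exos. Over all mouse miRNAs at a norm value of 100 or more in either library, 32.2% of 307 and 29.4% of 303 were. The list was chosen with earlier results of these data known, so it is no independent check of the label. miR-196a-5p, known from white fat, had 1436 in HFD vWAT-Exos and 1392 in LFD vWAT-Exos, against 4.94 in HFD BAT-Exos and 4.13 in LFD BAT-Exos. With 1 library for each combination of diet and depot, no value has a replicate error. Intervals cover counting error in the reads alone, not the spread over animals or exosome preparations. The number of exosomes behind each library is unknown, so fewer exosomes from one cell type and less miRNA in each of them cannot be told apart.

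miR-22-3p, the guide strand, was among the 3 most abundant mouse miRNAs of every library. Its norm value was 210118 in HFD vWAT-Exos (88664 reads) and 159301 in LFD vWAT-Exos (116976 reads). In BAT-Exos it was 378447 on HFD (536331 reads) and 286228 on LFD (346775 reads). The order by norm value was HFD then LFD BAT-Exos, followed by HFD and LFD vWAT-Exos, and neighbours in this order differed by more than their counting error. As a percent of the mouse miRNA total of the library it was 7.50% in HFD vWAT-Exos (95% exact Clopper-Pearson interval 7.45 to 7.55), 6.24% in LFD vWAT-Exos (6.21 to 6.27), 6.72% in HFD BAT-Exos (6.70 to 6.74) and 5.26% in LFD BAT-Exos (5.24 to 5.28). On this scale HFD vWAT-Exos came first and LFD BAT-Exos last, so the order of the depots depended on the scale while the order of the diets did not. It ranked 2 in HFD BAT-Exos and 3 in the other libraries. In vWAT-Exos miR-21a-5p and miR-29a-3p were above it, with miR-29a-3p at 216172 on HFD and 253191 on LFD, and miR-23a-3p followed it at 169326 and 121750. In HFD BAT-Exos only miR-378a-3p, a miRNA of brown fat, was above it, and in LFD BAT-Exos also miR-378c, at 359671. The next below it in BAT-Exos was miR-29a-3p, at 364404 on HFD and 282796 on LFD.

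miR-22-5p, the passenger strand, was also well above the middle of the listed miRNAs in every library, at lower levels than the guide. Its norm value was 2375 in HFD vWAT-Exos (1002 reads) and 1561 in LFD vWAT-Exos (1146 reads), against 9981 in HFD BAT-Exos (14145 reads) and 5267 in LFD BAT-Exos (6381 reads). With 1 library per group, both BAT-Exos values were above both vWAT-Exos values, and within each depot HFD was the higher. The share of all mouse miRNAs with this order was not counted. At least 2-fold lower in vWAT-Exos were 32.2% of 307 mouse miRNAs on HFD and 29.4% of 303 on LFD. Of the mouse miRNA total it made up 0.0847% in HFD vWAT-Exos (95% interval 0.0796 to 0.0902), 0.0611% in LFD vWAT-Exos (0.0576 to 0.0648), 0.177% in HFD BAT-Exos (0.174 to 0.180) and 0.0968% in LFD BAT-Exos (0.0944 to 0.0992). The 4 libraries kept their order on both scales. Its rank was 91 of 426 listed mouse miRNAs in HFD vWAT-Exos, 115 of 483 in LFD vWAT-Exos, 53 of 525 in HFD BAT-Exos and 70 of 527 in LFD BAT-Exos. The median mouse miRNA above 0 lay at a norm value of 199, 136, 96.0 and 120 in the same libraries.

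**Figure D1:**
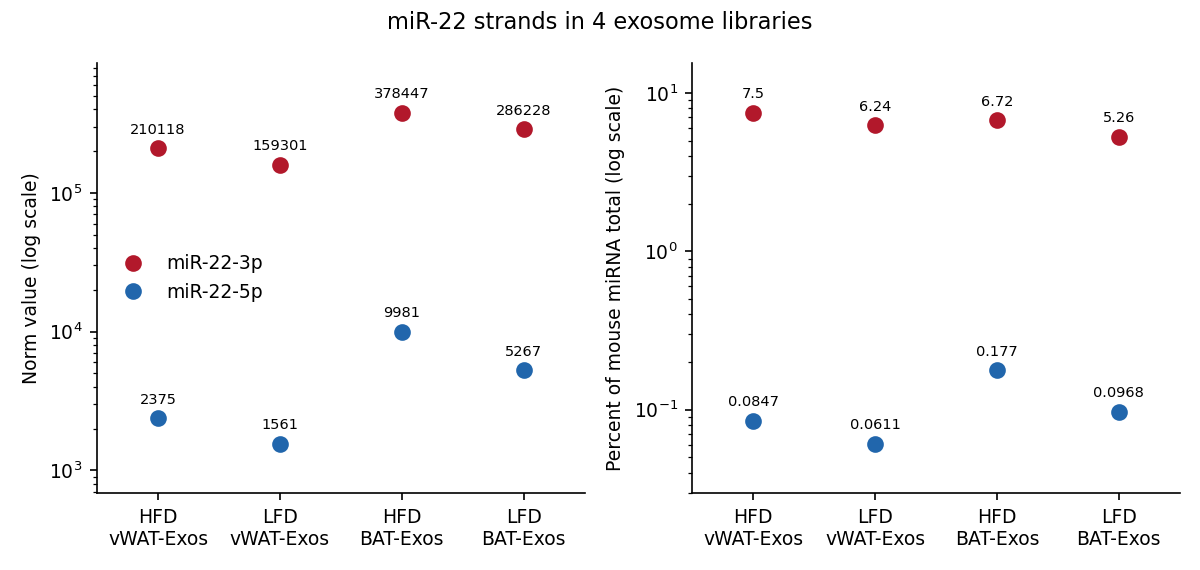
Norm value (left) and percent of the mouse miRNA total (right), both on log axes, of miR-22-3p (red) and miR-22-5p (blue) in the 4 libraries; each point is 1 library, and counting intervals are smaller than the points on this scale. miR-22-5p was highest in HFD BAT-Exos on both scales (9981 and 0.177%), whereas miR-22-3p was highest in HFD BAT-Exos by norm value (378447) and in HFD vWAT-Exos by percent (7.50%).

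The comparison of the diets asks whether obesity induced by the diet goes with another miRNA content of the exosomes. Both strands had higher norm values on HFD than on LFD in both depots. By norm value, the difference for miR-22-3p was the same size in each depot. It was 1.32-fold in vWAT-Exos (95% counting interval 1.31 to 1.33) and 1.32-fold in BAT-Exos (1.32 to 1.33). On the scale of log2(norm value + 1) these are 0.40 and 0.40, and the difference between the depots was -0.003. That equality depended on the scale. The log2 folds in vWAT-Exos and BAT-Exos were 0.27 and 0.35 by share of the mouse total. Under median-of-ratios scaling they were 0.45 and 0.38. For miR-22-5p the difference was 1.52-fold in vWAT-Exos (1.40 to 1.66) and 1.90-fold in BAT-Exos (1.84 to 1.95), or 0.61 and 0.92 on the log2 scale. Its intervals in the depots did not overlap, and with 1 library per group the difference between the depots, vWAT-Exos minus BAT-Exos, of -0.32 on the log2 scale was not tested.

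Neither strand reached a 2-fold difference at a norm value of 100 or more. These thresholds are part of the rule that the study states for vWAT-Exos, whose further limit on p was not applied here. In vWAT-Exos, 0 of the 2 strands were at least 2-fold higher on HFD, as were 5.65% of the 283 mouse miRNAs at 100 or more in either library. In BAT-Exos 0 of the 2 strands were, against 7.42% of 283. Of the same 283 miRNAs in vWAT-Exos, 24.7% had a log2 fold at least as high as miR-22-3p and 16.3% at least as high as miR-22-5p. In BAT-Exos these were 28.3% and 8.83%. The median log2 fold of all these miRNAs was 0.04 in vWAT-Exos and 0.07 in BAT-Exos. miR-22-3p thus lay 0.36 and 0.33 above the median in vWAT-Exos and BAT-Exos, and miR-22-5p 0.57 and 0.85 above it.

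The depots were compared within each diet. By norm value both strands were lower in vWAT-Exos than in BAT-Exos, and the passenger strand by more than the guide. miR-22-3p was 1.80-fold lower in vWAT-Exos on HFD (counting interval 1.79 to 1.81) and 1.80-fold lower on LFD (1.78 to 1.81). miR-22-5p was 4.20-fold lower in vWAT-Exos on HFD (3.94 to 4.49) and 3.37-fold lower on LFD (3.17 to 3.60). On HFD 1 of the 2 strands, miR-22-5p, was therefore at least 2-fold lower, as were 32.2% of 307 mouse miRNAs. The same strand was at least 2-fold lower on LFD, where 29.4% of 303 were. Such differences were thus common between these depots, and 21.5% of the miRNAs on HFD and 17.2% on LFD were lower in vWAT-Exos by as much as miR-22-5p or more.

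The direction for miR-22-3p rested on the scale. As a percent of the mouse miRNA total it was 1.12-fold higher in vWAT-Exos on HFD and 1.19-fold higher on LFD, the reverse of the norm values. miR-22-5p stayed lower in vWAT-Exos on this scale, by 2.09-fold on HFD and 1.58-fold on LFD. In BAT-Exos 1 miRNA, miR-378a-3p, held 37.0% of the mouse total on HFD and 38.7% on LFD. With the most abundant miRNA of each library left out of the total, the log2 fold of miR-22-3p was again below 0, at -0.26 on HFD and -0.19 on LFD. The median log2 fold of all miRNAs moved with the scale as well. It was 0.73 on HFD and 0.90 on LFD by percent, and -0.27 and -0.19 by norm value. Of the miRNAs that differed at least 2-fold between the depots, 70.8% on HFD and 80.6% on LFD were higher in vWAT-Exos by percent, and 48.7% and 44.4% by norm value. Of those that differed between the diets in vWAT-Exos, 32.5% were higher on HFD by percent, 66.7% under median-of-ratios scaling and 55.2% by norm value. Relative to the median log2 fold of depot, by norm value miR-22-3p lay at -0.58 on HFD and -0.66 on LFD, and miR-22-5p at -1.80 and -1.57. By percent these were -0.58 and -0.65, and -1.80 and -1.56. Subtracting the median removes a scaling factor between libraries, so the likeness of the scales here was fixed in advance.

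**Figure D2:**
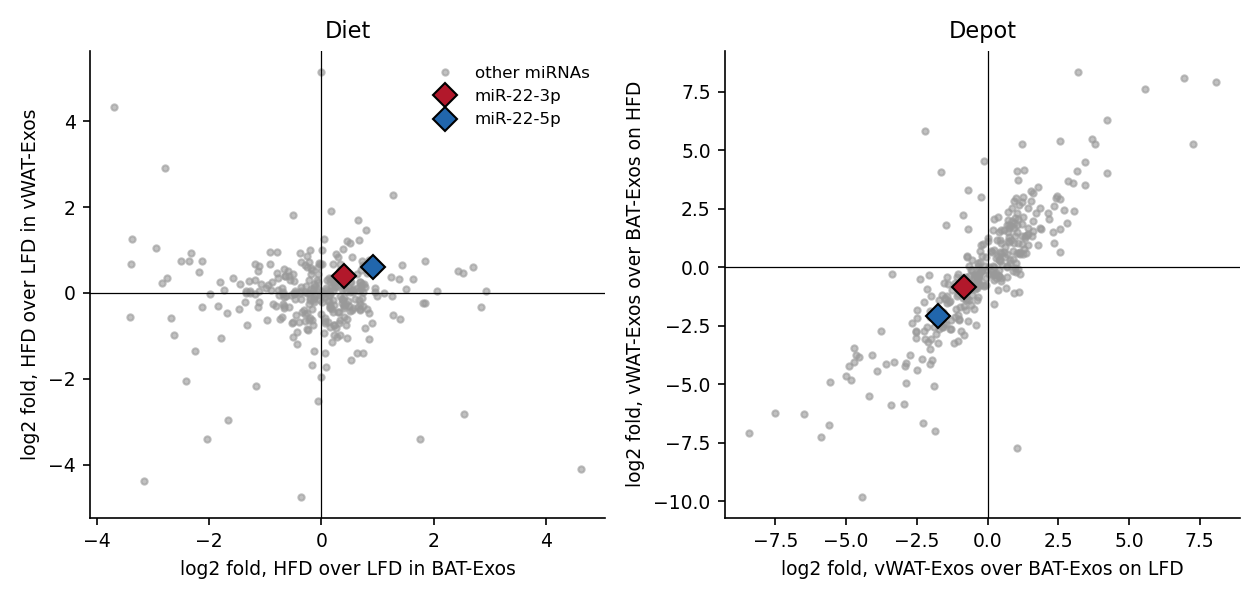
log2 fold of diet in vWAT-Exos against that in BAT-Exos (left) and of depot on HFD against that on LFD (right), for the 320 mouse miRNAs that reached a norm value of 100 in any library; each point is 1 miRNA, and miR-22-3p (red) and miR-22-5p (blue) are diamonds. Both strands lie above 0 for diet (0.40 and 0.40, 0.61 and 0.92) and below 0 for depot (-0.85 and -0.85, -2.07 and -1.75).

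**Figure D3:**
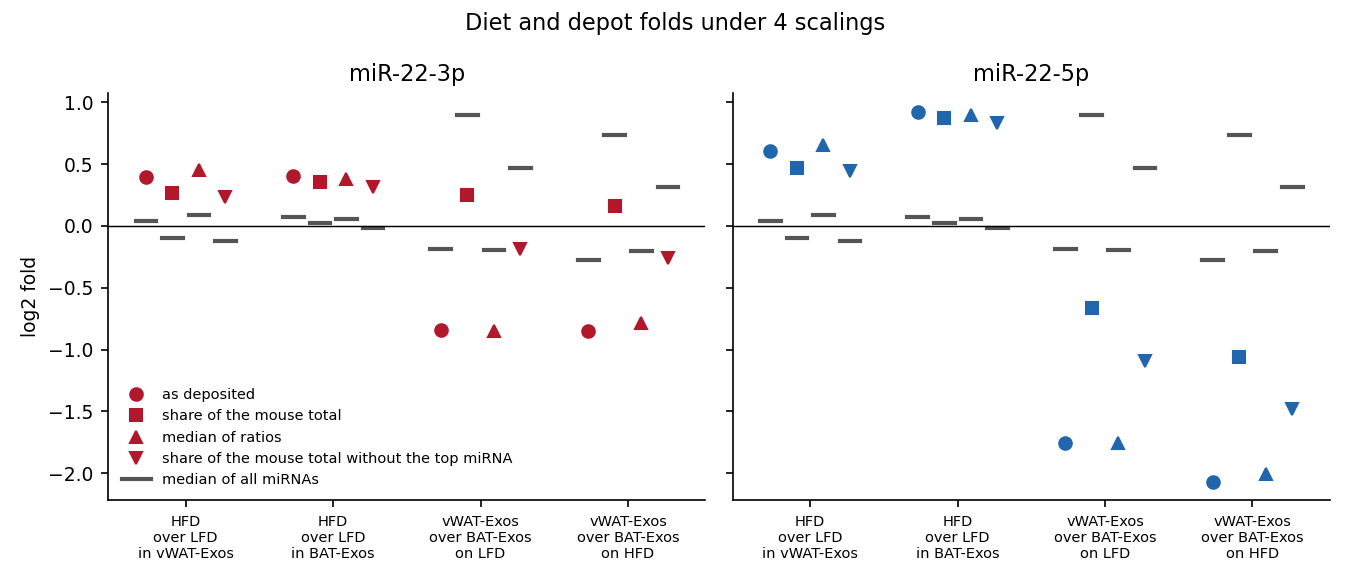
log2 fold of miR-22-3p (left) and miR-22-5p (right) in the 4 comparisons with the norm values as deposited and under 3 other scalings (symbols), with the median of all miRNAs as grey bars. The depot fold of miR-22-3p changes sign between the norm values (-0.85 on either diet) and the share of the mouse total (0.16 on HFD, 0.25 on LFD), and that of miR-22-5p is below 0 under each of them.

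A fit over the 4 libraries with diet and depot as additive terms (limma, log2(norm value + 1)) was the only test across miRNAs that was run. It has 1 residual degree of freedom, which for each miRNA is the difference between the depots in the effect of diet, and limma drew this error toward that of all 512 miRNAs. The standard errors printed here therefore come mostly from the other miRNAs, and none is a spread of replicates. For depot it called 19.5% of 512 mouse miRNAs at an adjusted p under 0.05, and neither strand was among them. The depot effect of miR-22-5p, vWAT-Exos over BAT-Exos, was -1.91 ± 0.52 (SE) on the log2 scale, with an adjusted p of 0.079 in limma, and it was lower in vWAT-Exos on both diets. That of miR-22-3p was -0.85 ± 0.52, with an adjusted p of 0.28. For diet, limma called 0 of the 512 miRNAs (0%), while 27 had an unadjusted p under 0.05. The diet effect, HFD over LFD, was 0.76 ± 0.52 for miR-22-5p (adjusted p 0.92) and 0.40 ± 0.52 for miR-22-3p (adjusted p 0.94), with higher values on HFD in both depots for each strand. In the fit with a pseudocount of 10 in place of 1, the depot call of miR-22-5p was made, with an adjusted p of 0.012. Over the other alternatives its adjusted p was 0.085 and 0.15. An exact permutation test of these libraries, 2 against 2, cannot give a p below 0.33.

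The strands were compared with each other within a library, where the scaling between libraries cancels. miR-22-3p had 88.5 times the norm value of miR-22-5p in HFD vWAT-Exos (95% counting interval 83.1 to 94.3) and 102 times in LFD vWAT-Exos (96.3 to 108). In BAT-Exos the ratio was 37.9 on HFD (37.3 to 38.6) and 54.3 on LFD (53.0 to 55.7). The passenger strand thus made up 1.12% of the pair in HFD vWAT-Exos, 0.970% in LFD vWAT-Exos, 2.57% in HFD BAT-Exos and 1.81% in LFD BAT-Exos. With 1 library per group, both ratios in vWAT-Exos were above both in BAT-Exos, and the ratio was lower on HFD than on LFD in both depots. The share of all pairs with this order was not counted, and other pairs, such as miR-193a and miR-30a, also had both vWAT-Exos ratios above both BAT-Exos ratios.

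Between the depots the strand ratio was 2.33-fold higher in vWAT-Exos than in BAT-Exos on HFD (2.19 to 2.49) and 1.88-fold higher on LFD (1.76 to 2.001). Other pairs were matched by name, and those whose less abundant arm reached 10 in both libraries were taken. A strand ratio at least 2-fold higher in vWAT-Exos was found for 22.4% of 85 pairs on HFD, miR-22 among them, and for 18.9% of 90 pairs on LFD, where miR-22 was under the threshold. As far or further in the same direction were 18.8% of the pairs on HFD and 23.3% on LFD, so a shift of this size was not unusual among pairs. Between the diets, the ratio was 1.15-fold lower on HFD in vWAT-Exos (1.06 to 1.26) and 1.43-fold lower on HFD in BAT-Exos (1.39 to 1.48). In vWAT-Exos 47.0% of 100 pairs had a ratio lower on HFD by as much or more, and in BAT-Exos 14.3% of 91 pairs (6.52% of the pairs when the less abundant arm had to reach 100). The median log2 difference of the ratio, HFD over LFD, was -0.17 over the pairs in vWAT-Exos, against -0.21 for miR-22. In BAT-Exos it was 0.31 over the pairs, with 55 of 91 above 0, against -0.52 for miR-22. With a minimum of 100 these medians were -0.10 and 0.09.

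Set against other pairs in the same library, miR-22 was among those with the most 3p over 5p. It ranked 11 of 108 pairs in HFD vWAT-Exos, between miR-221 (a 3p over 5p ratio of 89.3) and miR-501 (a ratio of 79.7). In LFD vWAT-Exos it ranked 10 of 106, between miR-148b (153) and miR-27a (86.3). Its place was 13 of 99 in HFD BAT-Exos, between miR-143 (52.3) and miR-140 (34.9), and 13 of 97 in LFD BAT-Exos, between miR-342 (56.0) and miR-132 (47.1). The 3p arm was the more abundant one in 47.2%, 45.3%, 45.5% and 43.3% of the pairs of these libraries, and the more abundant arm of the median pair exceeded the other by 11.0-, 13.1-, 11.2- and 9.84-fold.

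**Figure D4:**
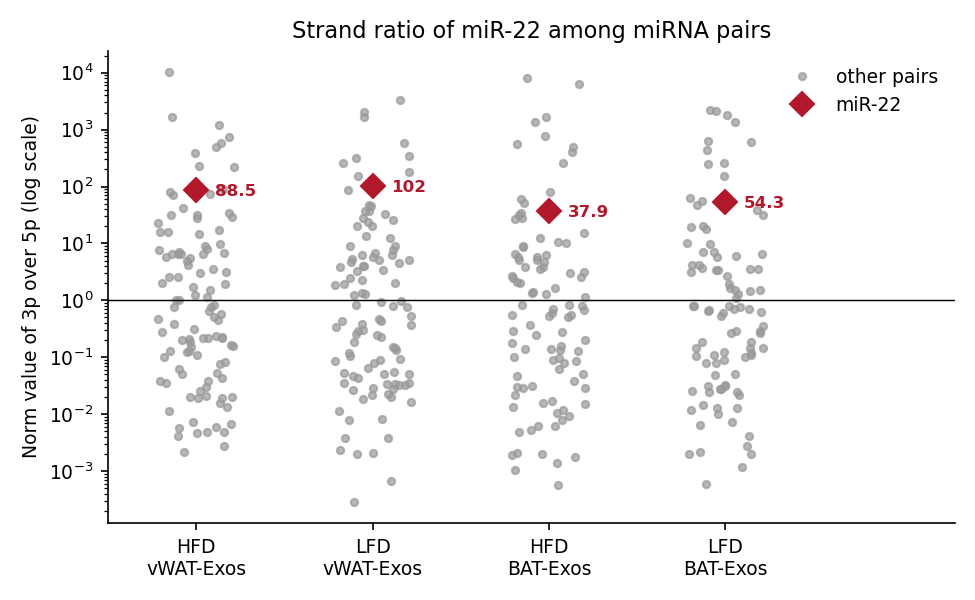
Norm value of the 3p arm over that of the 5p arm, on a log axis, for each miRNA pair with at least 10 for the less abundant arm (grey points) and for miR-22 (red diamonds) in the 4 libraries; the line marks a ratio of 1, and grey points are spread sideways at random. The miR-22 ratio was 88.5 and 102 in vWAT-Exos on HFD and LFD, and 37.9 and 54.3 in BAT-Exos.

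By likeness of pattern over the 4 libraries, miR-148b-3p was the nearest to miR-22-3p among the 212 other mouse miRNAs at 100 or more in every library. Its norm value was 7201 in HFD vWAT-Exos and 5207 in LFD vWAT-Exos, against 12792 in HFD BAT-Exos and 9827 in LFD BAT-Exos. The root mean square difference of log2 values, each centred on its own mean, was 0.03 between these miRNAs, and the median over the 212 was 0.71. Next came miR-24-3p (0.10), miR-29a-5p (0.11), miR-339-3p (0.12) and miR-27a-3p (0.13). For miR-22-5p the nearest were miR-322-3p (0.14), the erythroid miR-451a (0.20), miR-139-5p (0.23), miR-183-5p (0.27) and miR-193a-3p (0.27), with a median of 1.03. The strands of miR-22 differed by 0.57 from each other, which put miR-22-5p at place 86 in the order for miR-22-3p, and miR-22-3p at place 41 in the order for miR-22-5p. By Pearson correlation over the same 4 libraries, which leaves out the size of the differences, each strand was at place 3 in the order for the other, and 1 of the 5 nearest was shared with the order by root mean square for each strand. By norm value the strands thus ranked the libraries alike and differed in the size of the differences. By percent of the mouse total they did not rank them alike, with miR-22-3p highest in HFD vWAT-Exos and miR-22-5p in HFD BAT-Exos. The likeness is a description over 4 points.

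The miRNAs known from fat cells, a list of 19 of which 18 were found, were counted at the same thresholds. In vWAT-Exos 1 was at least 2-fold higher on HFD and 0 lower of 18, with a median log2 fold of 0.09, and in BAT-Exos 0 and 0 of 17, with a median of 0.11. Over all miRNAs 16 were higher and 13 lower of 283 in vWAT-Exos, and 21 and 35 of 283 in BAT-Exos. Between the depots, 9 were higher and 3 lower of 18 in vWAT-Exos on HFD, and 8 higher and 4 lower of 18 on LFD. Over all miRNAs 94 were higher and 99 lower of 307 on HFD, and 71 and 89 of 303 on LFD. The list had medians of 0.81 and 0.85 on HFD and LFD, against -0.27 and -0.19 over all miRNAs. Its most abundant members were miR-21a-5p, known from inflammation, at 439869 in HFD vWAT-Exos and 443553 in LFD vWAT-Exos against 72338 in HFD BAT-Exos and 86674 in LFD BAT-Exos, and miR-148a-3p, known to promote fat cell differentiation, at 63515 and 41562 against 101136 and 120815. The 10 miRNAs of brown fat had median log2 folds of depot, vWAT-Exos over BAT-Exos, of -2.73 on HFD and -3.01 on LFD. They were led by miR-378a-3p, which lies within Ppargc1b, a regulator of mitochondria, and miR-365-3p, with 1690 and 1570 in vWAT-Exos on HFD and LFD, against 36458 and 23347 in BAT-Exos. Both strands of miR-22 had smaller depot folds than these medians.

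miRNAs of other cell types also differed between the libraries. The 7 miRNAs of striated muscle, a tissue rich in miR-22, summed to 0.0494% of the mouse total in HFD vWAT-Exos and 0.0611% in LFD vWAT-Exos, against 0.407% in HFD BAT-Exos and 0.0770% in LFD BAT-Exos. By norm value the sums were 1385 and 1560 in vWAT-Exos on HFD and LFD, against 22933 and 4193 in BAT-Exos. The depots on LFD were thus further apart by norm value than by percent. Of the 6 that reached 100 in a BAT-Exos library, all 6 were at least 2-fold higher on HFD, as were 7.42% of all miRNAs, and 1 of the 6, miR-208b-3p, reached 100 in HFD BAT-Exos alone. Among the others were miR-133a-3p, at 13086 on HFD against 1829 on LFD in BAT-Exos, and miR-1a-3p, at 4968 against 1383. In vWAT-Exos 0 of 4 were. miR-208a-3p, a heart miRNA, was listed at 0 in every library, and miR-208b-3p at 0 in HFD vWAT-Exos. By percent, miR-22-5p was highest in HFD BAT-Exos (0.177%) and miR-22-3p in HFD vWAT-Exos (7.50%). By norm value both strands were highest in HFD BAT-Exos, miR-22-5p at 9981 and miR-22-3p at 378447. Between the LFD libraries, miR-22-5p had 0.0611% in vWAT-Exos and 0.0968% in BAT-Exos. What muscle contributed to the values of miR-22 was not tested.

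Of the erythroid miRNAs, 3 of 4 were found by name. These summed to 0.183% in HFD vWAT-Exos and 0.134% in LFD vWAT-Exos, against 0.249% in HFD BAT-Exos and 0.216% in LFD BAT-Exos. The name miR-486a-5p was not found, and miR-486b-5p, which was listed, is not in these sums. Most of each sum was miR-451a, with 3796 and 2627 in vWAT-Exos on HFD and LFD, against 13822 and 10738 in BAT-Exos. miR-144-3p had another order, with 1154 and 688 against 142 and 808. The 4 leukocyte miRNAs, led by miR-142a-5p (25079 and 20409 against 650 and 1469) and miR-150-5p (13079 and 10998 against 1140 and 1020), made up 1.57% in either vWAT-Exos library, against 0.0442% in HFD BAT-Exos and 0.0733% in LFD BAT-Exos. By norm value, 3 of the 4 were at least 2-fold higher in vWAT-Exos on either diet. Over all mouse miRNAs, 30.6% of 307 on HFD and 23.4% of 303 on LFD were. On each diet 1 of the 4 lay within 2-fold, and on LFD that 1 was not higher in vWAT-Exos. By percent, miR-22-5p was lower in both vWAT-Exos libraries than in BAT-Exos, while miR-22-3p was higher in vWAT-Exos on either diet. By norm value both strands were lower in vWAT-Exos on either diet. miR-126a-3p and miR-126a-5p of endothelial cells summed to 0.501% and 0.667% in vWAT-Exos on HFD and LFD, against 0.658% and 0.425% in BAT-Exos. By norm value their sums were 14051 and 17030 against 37025 and 23152, so on LFD the order of the depots depended on the scale. miR-122-5p, the defining miRNA of liver, had norm values of 182 and 114 against 262 and 596. None of the erythroid, leukocyte, endothelial and liver miRNAs found was listed at 0 in any library. What these cells contributed to the values of miR-22 was not tested.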

How the data were processed

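Exosomal small RNA was sequenced as single-end reads on an Illumina HiSeq from TruSeq Small RNA libraries. The authors used ACGT101-miR, which removed adapter dimers, junk, low-complexity reads, other RNA families and repeats, and deposited 1 normalized signal per entry and library, given as normalized counts. The formula, and whether a value covers other 3′ ends of the same strand, are not stated. The submitters' processing notes name the human build GRCh38, although the samples are from mice. Ratios of the strands are ratios of reads, uncorrected for ligation or PCR bias, and intervals and floors cover counting error only.

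The members and lists were chosen with earlier results of these data known. Each sequence was taken once. The value of 1 read was the commonest ratio of norm value to the number in the names of predicted entries listed in 1 library alone, which held for 3 of 3, 2 of 5, 100 of 112 and 127 of 146 such entries in HFD vWAT-Exos, LFD vWAT-Exos, HFD BAT-Exos and LFD BAT-Exos. All values of miR-22 were whole reads within 0.01 of a read, as were 85.3% to 86.9% of the mouse values above 0, so other depths are approximate and no count test was run. Counting intervals were exact Clopper-Pearson intervals, conditional on the summed reads for folds. For the comparison of strand ratios a normal interval on the log scale was used.

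miRNAs were counted at 2-fold where 1 or both libraries reached a norm value of 100. limma 3.58.1 (R 4.3.3) took miRNAs at 10 or more in 1 library, with p-values adjusted by Benjamini-Hochberg. Fold calls and limma were run on simulated data with known changes, as a check of the code. The simulated noise was not estimated from these libraries, so no error rate for these data follows from it. The miRNAs named were the members, the most abundant miRNA of each library, the 5 most like each member, the neighbours by strand ratio, and the most abundant 2 of each list. The neighbours by level, the muscle miRNAs listed at 0, the miR-486 entries, and the miR-193a and miR-30a pairs were named after the values were seen. The place of miR-22 among other pairs in a library was planned, and the comparison of its change between libraries with that of other pairs was added after the data were seen. Python 3.11.15, numpy 2.4.6, pandas 2.3.3, scipy 1.17.1, matplotlib 3.10.9 and RNAfold 2.7.2 were used. Alternatives changed the scaling, pseudocount, floor, fold, entries counted and measure of likeness.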

Additional observations from a re-analysis of the deposited data

Results flagged for a closer look

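Outside the mouse rows, the table listed sequences under the opossum name mdo-miR-22-3p. The first was as long as miR-22-3p and differed from it by T22C, with positions counted from 1 at the 5′ end of miR-22-3p, so that its seed was the same. It was above the 3 reads that a count of 0 allows in every library, with a norm value of 543 in HFD vWAT-Exos, 493 in LFD vWAT-Exos, 1194 in HFD BAT-Exos and 725 in LFD BAT-Exos, or 0.258%, 0.309%, 0.315% and 0.253% of miR-22-3p. The second differed by G21T and T22C and was listed at 67.0 in HFD BAT-Exos and 22.3 in LFD BAT-Exos, the deeper libraries, and at 0 in both vWAT-Exos libraries, where 3 reads are a norm value of 7.11 on HFD and 4.09 on LFD. Where these reads came from was not tested.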

How the results depend on the processing

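Of 36 alternative log2 folds of the strands, 34 kept their direction and 17 lay within the counting interval. Under the share of the mouse total, miR-22-3p reversed between the depots, to 0.16 on HFD and 0.25 on LFD. Its diet fold was 0.27 in vWAT-Exos and 0.35 in BAT-Exos there, and miR-22-5p had 0.47 and 0.87 for diet and -1.06 and -0.66 for depot on HFD and LFD. Leaving the most abundant miRNA out of that total gave 0.24 and 0.31 for the diet fold of miR-22-3p, 0.44 and 0.83 for that of miR-22-5p, -0.26 and -0.19 for the depot fold of miR-22-3p, and -1.48 and -1.09 for that of miR-22-5p. Under median-of-ratios scaling miR-22-3p had 0.45 and 0.38 for diet and -0.78 for depot on HFD. Summing the other entries of miR-22-3p moved none of the strand ratios or folds beyond the counting interval.

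With the floor of 100 in both libraries, 9 miRNAs were at least 2-fold higher on HFD in vWAT-Exos, and 65 and 57 lower in vWAT-Exos than in BAT-Exos on HFD and LFD. With a floor of 10 there were 40 and 53 higher on HFD in vWAT-Exos and BAT-Exos, and 172 and 146 lower in vWAT-Exos on HFD and LFD. At 1.5-fold, 48 and 54 were higher on HFD in vWAT-Exos and BAT-Exos. The share of pairs with a diet difference as large as that of miR-22 in BAT-Exos was 6.52% at a minimum of 100. For likeness, 1 of the 5 nearest was shared for each strand under Pearson correlation. A pseudocount of 10 gave 188 depot calls in limma, with miR-22-5p called at an adjusted p of 0.012. The other 11 of 12 adjusted p-values stayed on the same side of 0.05. No library could be left out as a replicate, since each group has 1. miR-22-5p rests on 1002 and 1146 reads in vWAT-Exos on HFD and LFD, which limits its precision there.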
